A study of Mus musculus with 6 samples.

Results

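Serpinb1a, Serpinb6a, Serpinb6b and Serpinb9 encode protease inhibitors of the clade B serpins that act inside cells. These 4 genes were followed out of the 17831 genes in the count table of WT and SIRPα KO lung ILC2s. All 4 passed the filter on low counts and were among the 13623 genes tested. They were picked with the SIRPα KO against WT values in view, in which the fall of Serpinb1a stood out, so the contrast is given for them as a description and carries no test.

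The libraries came from 3 WT and 3 SIRPα KO samples. WT mice are labelled CB57BL/6, and SIRPα KO mice carried the SIRPα tm1Ynliu/J allele, which is not limited to ILC2s. All mice were 6 to 8 weeks old and were given rmIL-33 (0.5 μg) into the nose on 3 days. ILC2s, innate lymphocytes that answer IL-33 with IL-5 and IL-13, were sorted on day 4 at a purity above 95%. The gate kept live CD45+ ST2+ CD127+ cells and left out those stained for T cell receptors, B220 of B cells, CD335 of NK cells, CD11b, CD11c and Gr1 of myeloid cells or FcεRIα of mast cells and basophils. The cells of both groups were then kept in culture with rmIL-2 plus rmIL-7, for 18 h by the results text of the study and 24 h by its legend, so there is no group without IL-33 or without culture.

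A serpin works as a bait. It exposes a flexible reactive-centre loop, the protease cuts the loop after a residue called P1, and the protease is then trapped on the serpin, so that both molecules are used up. Clade B serpins lack a classical secretion signal and stay in the cytosol and nucleus, where they guard a cell against proteases that leak from its own granules and lysosomes. Serpinb1a is known as an inhibitor of the neutrophil proteases elastase, cathepsin G and proteinase 3. Serpinb6a inhibits cathepsin G, Serpinb6b inhibits granzyme A, and Serpinb9 inhibits granzyme B.

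The 4 genes lie on chromosome 13 of mm10. Serpinb1a (ENSMUSG00000044734.16) spans chr13:32842092-32851185 on the minus strand. Serpinb6b (ENSMUSG00000042842.11) follows at chr13:32965209-32979067 on the plus strand, and Serpinb9 (ENSMUSG00000045827.10) at chr13:33003250-33017957, also on the plus strand. Serpinb6a (ENSMUSG00000060147.15) lies farther along, at chr13:33917918-34002794 on the minus strand. The stretch of each coding sequence that encodes the reactive-centre loop is printed because it sets which proteases a serpin can trap. Each run has 60 bases in the direction of the gene, from GENCODE M21 on mm10, and lies within the last exon of the principal coding transcript. The capitals mark the P1 codon and the codon after it, with P1 taken by the usual spacing as codon 17 of the stretch.
Serpinb1a, chr13:32842917-32842976, minus strand: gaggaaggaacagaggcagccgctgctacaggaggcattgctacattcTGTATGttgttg
Serpinb6a, chr13:33918140-33918199, minus strand: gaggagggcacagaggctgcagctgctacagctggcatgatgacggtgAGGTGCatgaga
Serpinb6b, chr13:32978201-32978260, plus strand: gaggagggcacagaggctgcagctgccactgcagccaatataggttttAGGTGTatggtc
Serpinb9, chr13:33015693-33015752, plus strand: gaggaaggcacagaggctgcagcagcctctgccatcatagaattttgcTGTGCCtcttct
Of the first 24 bases, which encode the hinge of the loop, 19 were the same in all 4 genes. Of the next 24 it was 6, and of the last 12, which hold the capitals, 1. Serpinb6a and Serpinb6b shared their P1 codon and 44 of the 60 bases. Serpinb1a and Serpinb9 shared another P1 codon. Serpinb1a shared 38 of 60 with Serpinb6a, 36 with Serpinb6b and 35 with Serpinb9. Over the whole coding sequence, identity was 85.7% between Serpinb6a and Serpinb6b, and between 57.6% and 66.7% for the other pairs. No transcript of another gene reached 95% identity over 50% of the length of any of the 4. The closest was Serpinb1c to Serpinb1a, at 87.6% identity, and Serpinb6c to Serpinb6a and Serpinb6b, at 86.4% and 86.5%.

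Between 13980499 and 19051507 reads were counted on genes per library. The labels give WT replicates 1 and 2 the same number in their sample codes, and SIRPα KO replicates 2 and 3 another, called a shared code here. WT replicate 2 and SIRPα KO replicate 3 carry V1 after that number. Within these pairs, counts of 9640 genes differed by 35.9 and 12.1 times the variance that counting alone gives (chi-square per gene), so no library was a copy of another, and each was kept. Pairs with different codes differed by 79.9 and 98.5 times in WT and by 8.62 and 13.5 times in SIRPα KO, so the WT libraries of a shared code were closer to each other than to the third. Here n counts libraries, and if a code is a single sample, each group has 2 samples and the p values are too small. Nothing in the labels says that the libraries came from separate mice, so p values measure the spread between these libraries, which may be technical. Sirpa, the targeted gene, had 8.57, 6.83 and 4.83 CPM in WT and 3.07, 4.46 and 1.74 CPM in SIRPα KO, without overlap and with an adjusted p of 0.115 by edgeR. Counts per gene do not show which Sirpa exons were read. All 15 ILC2 markers listed were counted, with a sum of 15200 to 16400 CPM in WT and 21000 to 21600 CPM in SIRPα KO. Most of that sum was Il5. By edgeR, Il5, Il2ra and Ptprc rose, Thy1 (log2 fold change -2.06, adjusted p = 0.0139) and Id2 (-0.65, adjusted p = 0.0154) fell, and the other 10 did not pass. None of the 15 passed without any 1 of the SIRPα KO libraries, or with libraries of a shared code summed. By edgeR's biological coefficient of variation, WT libraries were more spread (38.0%) than SIRPα KO libraries (15.2%).

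Serpinb1a was the member with the largest difference between the groups. It was counted at 53.6, 52.5 and 66.5 CPM in WT replicates 1, 2 and 3, and at 8.12, 8.40 and 10.4 CPM in SIRPα KO replicates 1, 2 and 3. CPM are read counts scaled to library depth with TMM factors. These values rest on 933, 739 and 1005 reads in WT and on 127, 160 and 168 reads in SIRPα KO. All SIRPα KO libraries were low and all WT libraries high, and the groups were far apart. The lowest WT value was 5.04 times the highest SIRPα KO value. The means were 57.6 ± 7.78 CPM in WT against 8.98 ± 1.26 CPM in SIRPα KO (SD, n = 3), which is 6.41-fold lower in SIRPα KO. The fitted log2 fold change was -2.68 (SE 0.19), and 46 of the 13623 tested genes had a value this low or lower. In bulk libraries, fewer cells of a type and less RNA per cell cannot be told apart.

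Serpinb6a, the inhibitor of cathepsin G, had values that overlapped between the groups. It was counted at 129, 153 and 192 CPM in WT and at 123, 138 and 128 CPM in SIRPα KO. WT replicate 3 was the highest of the 6 libraries, and WT replicate 1 fell within the SIRPα KO range. The means were 158 ± 32.0 CPM and 130 ± 7.54 CPM (SD, n = 3), with a log2 fold change of -0.29 (SE 0.16). Without WT replicate 3 the log2 fold change was -0.11. Serpinb6a has 17 annotated transcripts, and the antisense gene 1110046J04Rik, Nqo2 and the first bases of Ripk1 lie within its span on the other strand. Whether the counting used strand is not stated in the sources used here, so reads of these genes cannot be told apart from those of Serpinb6a where exons overlap.

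Serpinb9, the granzyme B inhibitor, was higher in SIRPα KO. It was counted at 31.3, 29.6 and 28.3 CPM in WT and at 53.5, 46.5 and 37.9 CPM in SIRPα KO. The WT libraries lay close together, the SIRPα KO libraries were more spread, and the groups did not overlap. The lowest SIRPα KO value was 1.21 times the highest WT value. The means were 29.7 ± 1.51 CPM and 46.0 ± 7.81 CPM (SD, n = 3), a ratio of 1.55, with a log2 fold change of 0.63 (SE 0.17). When transcript length and GC content were corrected for, its log2 fold change was 0.31 (SE 0.17), a smaller difference in the same direction.

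Serpinb6b, the granzyme A inhibitor, was counted least. It had 4.31, 3.91 and 2.05 CPM in WT and 5.82, 4.72 and 6.20 CPM in SIRPα KO, from 31 to 100 reads per library. The groups did not overlap, but the gap was narrow, with the lowest SIRPα KO value at 1.10 times the highest WT value. The means were 3.43 ± 1.21 CPM and 5.58 ± 0.768 CPM (SD, n = 3), and the log2 fold change was 0.70 (SE 0.37). WT replicate 3 was again the library farthest from the rest of its group, and without it the log2 fold change was 0.45.

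**Figure D1:**
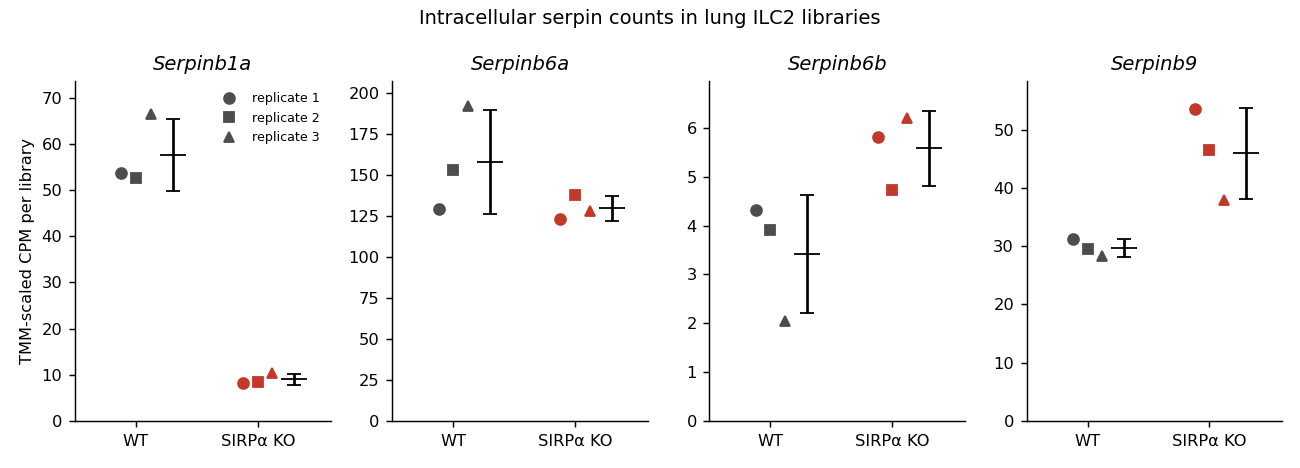
Read counts in CPM (vertical axis, from 0, TMM-scaled) of the 4 serpins in 3 WT and 3 SIRPα KO libraries. Each symbol is a library and the bar beside each group is its mean ± SD (n = 3). Serpinb1a lay between 8.12 and 10.4 CPM in SIRPα KO and between 52.5 and 66.5 CPM in WT, Serpinb9 and Serpinb6b were higher in SIRPα KO without overlap, and Serpinb6a overlapped.

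Of the 4 genes, 1 passed an adjusted p under 0.05 as lower, which was Serpinb1a, and none as higher. Among all tested genes, 5.81% passed as lower and 5.94% as higher. The groups did not overlap for Serpinb1a on the lower side, as for 21.2% of all tested genes. They did not overlap for Serpinb6b and Serpinb9 on the higher side, as for 21.6% of all tested genes. Serpinb1a did not pass when the libraries of a shared code were summed. Serpinb9 passed as higher by DESeq2 and with a filter of 1 CPM in 3 libraries, and in no other setting. Since the genes were chosen on this contrast, these calls are no test of them, and nothing is read from the calls or the counts.

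The balance among the 4 genes was followed within each library, on the CPM scale and not per length. Serpinb1a made up 22.0% to 24.6% of the summed CPM of the 4 genes in WT and 4.26% to 5.70% in SIRPα KO. Serpinb9 made up 9.78% to 14.3% in WT and 20.7% to 28.1% in SIRPα KO. Serpinb6a remained the largest part, with 59.1% to 66.5% in WT and 64.5% to 70.2% in SIRPα KO. The sum itself was 218 to 289 CPM in WT and 183 to 197 CPM in SIRPα KO. Serpinb1a, picked with its fall in view, is part of this sum and of the shares and ratios. Nothing further is read from them. Within a library, the ratio of Serpinb9 to Serpinb1a CPM was 0.583, 0.563 and 0.425 in WT and 6.59, 5.54 and 3.64 in SIRPα KO. A WT library thus held more Serpinb1a than Serpinb9 reads, and a SIRPα KO library the reverse. The ratio of Serpinb6a to Serpinb1a CPM was 2.40, 2.91 and 2.89 in WT, and 15.1, 16.4 and 12.3 in SIRPα KO.

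Levels of different genes were compared per length, as CPM per kb of the union of annotated exons. In WT, the order was Serpinb6a at 29.2 ± 5.92, Serpinb1a at 25.0 ± 3.38, Serpinb9 at 8.50 ± 0.432 and Serpinb6b at 1.51 ± 0.533 CPM per kb (SD, n = 3). The ranges of Serpinb6a, 23.8 to 35.5, and Serpinb1a, 22.8 to 28.9, overlapped, although Serpinb6a was higher within each of the 3 libraries. All lower neighbours in the order were apart. In SIRPα KO, the order was Serpinb6a at 24 ± 1.39, Serpinb9 at 13.2 ± 2.24, Serpinb1a at 3.90 ± 0.546 and Serpinb6b at 2.47 ± 0.339 CPM per kb, and all neighbours were apart. Serpinb1a thus moved from the second to the third place, below Serpinb9. The exon union of Serpinb6a, 5409 bases, is far longer than its principal coding transcript of 1654 bases. Per kb of principal coding transcript, Serpinb6a stood at 95.5 ± 19.4 in WT, and its range lay above that of Serpinb1a, at 30.0 ± 4.06.

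Each member kept its direction under every one of the 16 other analysis settings. The log2 fold change lay between -2.79 and -2.56 for Serpinb1a, between -0.41 and -0.11 for Serpinb6a, between 0.45 and 0.91 for Serpinb6b and between 0.31 and 0.76 for Serpinb9. The settings replaced the tool, the scaling, the filter or the correction, or left out a library.

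**Figure D2:**
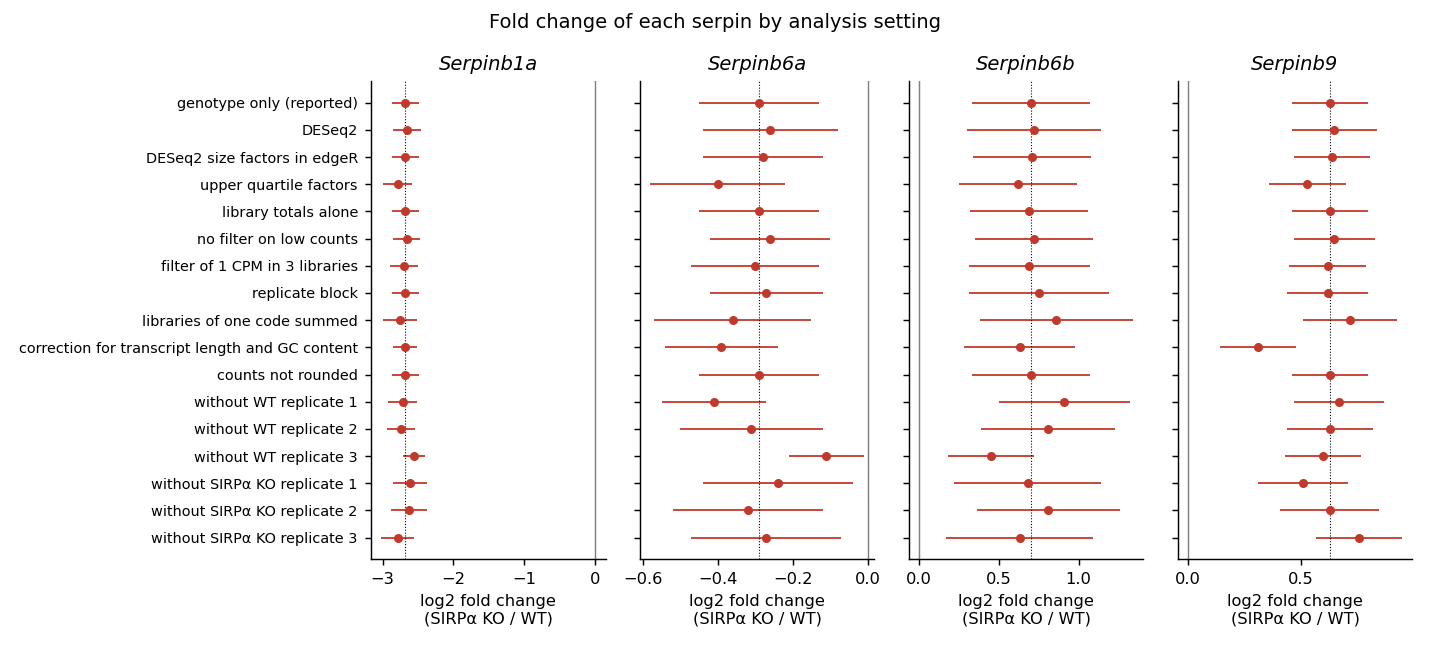
Log2 fold change (horizontal axis, SIRPα KO over WT, a separate scale for each panel) of each serpin under the reported fit and 16 other settings (vertical axis). Points are fitted values, bars are SE, the grey line is 0 and the dotted line is the reported value. Serpinb1a stayed between -2.79 and -2.56, and the value of Serpinb9 was lowest, at 0.31, with transcript length and GC content corrected for.

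The genes whose log2 CPM followed each member most closely over the 6 libraries were found among 9146 genes whose log2 CPM averaged at least 3 (9147 for Serpinb6b), and are given as a description. With 6 points, which the groups themselves divide, many genes reach a high Pearson's r. For Serpinb1a they were Ccnd3, a D-type cyclin (r = 0.9989), Ddit3, a stress-induced transcription factor (r = 0.9984), and H1f0, a linker histone (r = 0.9978). Ccnd3 had 570, 555 and 595 CPM in WT and 370, 367 and 381 CPM in SIRPα KO, so its difference was far smaller than that of Serpinb1a. Ddit3 had 39.5, 39.7 and 41.6 CPM in WT and 15.9, 16.9 and 18.7 CPM in SIRPα KO. For Serpinb6a they were Vamp4 (r = 0.9981), Polr2i (r = 0.9958) and Rpl22 (r = 0.9870), which shared its high value in WT replicate 3. For Serpinb6b they were Vps26a (r = 0.9988), Fbxo30 (r = 0.9975) and Polr2b (r = 0.9969), and for Serpinb9 they were Erlin2 (r = 0.9891), Adsl (r = 0.9888) and Fip1l1 (r = 0.9846). Erlin2 had 34.9, 34.1 and 33.6 CPM in WT and 65.3, 59.9 and 48.7 CPM in SIRPα KO, the same order of libraries as Serpinb9.

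The genes around the members were followed next. Within 1 Mb of a member, 24 other genes were in the table and 20 were tested. Of these 20, 0 passed an adjusted p under 0.05 in either direction by edgeR, beside 5.81% lower and 5.94% higher among all tested genes. An unadjusted p under 0.05 was reached by 5 of them and by 32.0% of all tested genes, and DESeq2 called 1, which was Tubb2a. The median log2 fold change of the 20 was 0.41, beside -0.025 over all tested genes. Wrnip1, a DNA damage response gene that starts 49.1 kb from Serpinb1a, had a log2 fold change of 0.30 (SE 0.25, adjusted p = 0.427). Serpinb6b starts 114.0 kb and Serpinb9 152.1 kb from the Serpinb1a start, on the other side of it, and both had values above 0. Serpinb9b, at 176.2 kb, had a log2 fold change of 0.85 with a wide error (SE 1.3, adjusted p = 0.680). Beside Serpinb6a, Ripk1, a kinase of cell death and NF-κB signalling, had 0.38 (SE 0.18, adjusted p = 0.186), and Tubb2a, a tubulin, had 0.44 (SE 0.12, adjusted p = 0.0526). Gmds, on the far side of Serpinb1a, had -0.41 (SE 0.15, adjusted p = 0.111).

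**Figure D3:**
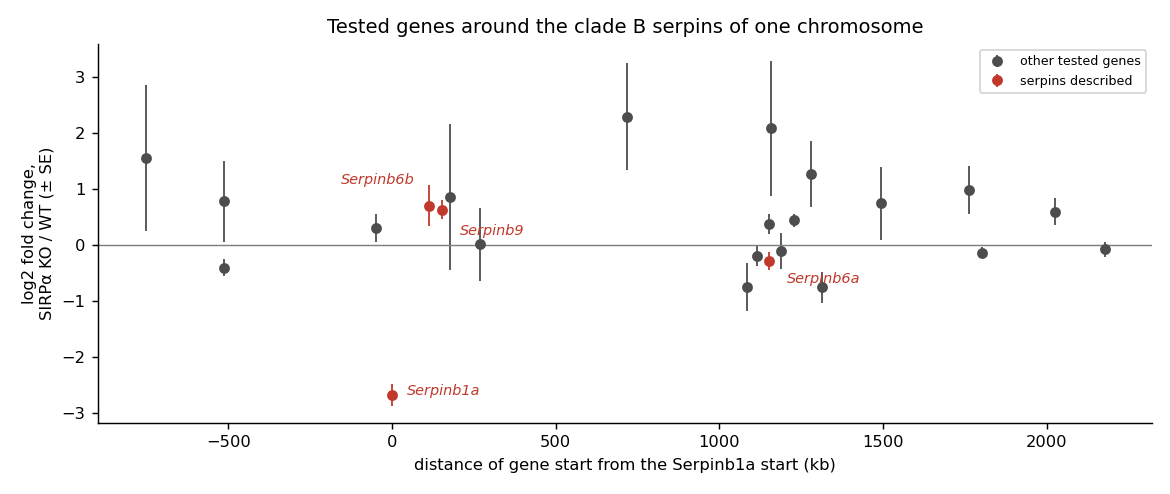
Log2 fold change (vertical axis, SIRPα KO over WT, bars are SE) of the tested genes within 1 Mb of a member, by the distance of each gene's start from that of Serpinb1a (horizontal axis, kb). Serpinb1a, picked with its fall in view, lay at -2.68, below all neighbours. Of these, 0 of 20 passed an adjusted p under 0.05 by edgeR, beside 5.81% lower and 5.94% higher among all tested genes.

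None of the other serpins tested passed on the lower side by edgeR or DESeq2. Of 23 other clade B serpins listed, 5 were in the table and 2 were tested, Serpinb2 and Serpinb9b, neither with an unadjusted p under 0.05. Serpinb2, a serpin of activated myeloid cells, had 2.27 ± 1.97 CPM in WT against 3.56 ± 1.40 CPM in SIRPα KO (SD, n = 3), and a log2 fold change of 0.66 (SE 0.67, adjusted p = 0.525). Serpinb1b, the close relative of Serpinb1a, had at most 12 reads in a library and was not tested. Of 23 serpins of other clades described here, 5 were tested, and 0 passed or had an unadjusted p under 0.05 by edgeR, and DESeq2 called 0. Serpina3g, a clade A serpin that also acts inside cells and inhibits cathepsin B, had 160 ± 7.64 CPM in WT against 155 ± 12.7 CPM in SIRPα KO, and a log2 fold change of -0.05 (SE 0.11, adjusted p = 0.805), which was 0.14 after the correction for length and GC content. Serpini1 had 9.43 ± 0.361 and 10.0 ± 1.93 CPM (log2 fold change 0.09, SE 0.24, adjusted p = 0.822).

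Inhibitors of other families were followed beside the serpins. Of 19 cystatins and other inhibitors listed, 10 were tested. By edgeR 3 fell and 0 rose, beside 5.81% lower and 5.94% higher among all tested genes. An unadjusted p under 0.05 was reached by 5 of the 10, beside 32.0% of all tested genes. The list had a median log2 fold change of -0.60, beside -0.025 over all tested genes. Cst3, the secreted cystatin C, had 254, 239 and 353 CPM in WT and 137, 144 and 141 CPM in SIRPα KO, and fell by 1.01 on the log2 scale (SE 0.16, adjusted p = 0.0149 by edgeR). With length and GC content corrected for, the Cst3 value was -0.34 (adjusted p = 0.039, between 2.11e-06 and 0.13 over all 16 alternatives), and the list had 2 calls and a median of -0.24. Cstb, a cytosolic cystatin that inhibits lysosomal cathepsins, had 181, 186 and 275 CPM in WT and 125, 125 and 137 CPM in SIRPα KO, and fell by 0.73 (SE 0.18, adjusted p = 0.0388). After the correction for length and GC content the Cstb value was -0.19 and did not pass. Spint2, a membrane-bound Kunitz inhibitor, fell by 0.81 (SE 0.17, adjusted p = 0.0277). Pebp1 and Cst7, the cystatin F of immune cells, had log2 fold changes of -0.22 (adjusted p = 0.288) and -0.47 (adjusted p = 0.154).

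Reads on the proteases that these serpins are known to inhibit ranged from 79 to 384 per library for Gzmb to at most 23 for Prtn3. Gzma, the target of Serpinb6b, had 5.58, 7.40 and 9.67 CPM in WT and 0.959, 2.10 and 2.98 CPM in SIRPα KO, and fell by 1.90 on the log2 scale (SE 0.46, adjusted p = 0.0391 by edgeR). Gzmb, the target of Serpinb9, had 11.6, 6.54 and 25.4 CPM in WT and 5.50, 4.30 and 4.90 CPM in SIRPα KO, with a log2 fold change of -1.57 (SE 0.47, adjusted p = 0.0672). Both granzymes were thus counted highest in WT replicate 3. Ctsg, the target of Serpinb1a and Serpinb6a, had between 10 and 44 reads in WT and 35, 0 and 2 reads in SIRPα KO (adjusted p = 0.602). Prtn3, the proteinase 3 gene, had 23 reads in WT replicate 3 and at most 2 in any other library. Gzmb, Ctsg and Prtn3 were named after their values were seen, as the known targets of the members, and Elane was not analysed here.

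Of all 21 granule serine proteases listed, 8 were tested. By edgeR 1 fell and 1 rose, beside 5.81% lower and 5.94% higher among all tested genes. An unadjusted p under 0.05 was reached by 4 of the 8, beside 32.0% of all tested genes. Tpsab1, a mast cell tryptase, had 2.47, 9.53 and 5.23 CPM in WT and 116, 70.5 and 76.5 CPM in SIRPα KO, and rose by 3.94 on the log2 scale (SE 0.46, adjusted p = 0.00776). Tpsb2 is a close relative whose reads the counting could split with it, so both are uncertain. The sum of both was 14, 19.6 and 20.3 CPM in WT and 140, 71.6 and 77.1 CPM in SIRPα KO. Tpsb2 itself had a log2 fold change of -0.50 (SE 1.1, adjusted p = 0.783), and Cma1, a mast cell chymase, had -1.42 (SE 1.2, adjusted p = 0.431). The sum of 9 mast cell and basophil markers was 29.2 to 70.8 CPM in WT and 4.28 to 56.6 CPM in SIRPα KO. The gate left out FcεRIα-positive cells, and the part of such cells in these results was not tested.

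Lysosomal proteases and the genes of pyroptosis were followed because clade B serpins guard against proteases that reach the cytosol. Of 15 lysosomal proteases, all 15 were tested and 0 passed by edgeR, 3 had an unadjusted p under 0.05 (beside 32.0% of all tested genes) and DESeq2 called 2. Ctsd had 707 ± 36.0 CPM in WT against 595 ± 2.35 CPM in SIRPα KO (log2 fold change -0.25, adjusted p = 0.0982). Ctsz had 533 ± 110 and 475 ± 23.2 CPM (log2 fold change -0.17, adjusted p = 0.463). Both values turned above 0, to 0.006 and 0.32, after the correction for length and GC content. Of 13 genes for inflammatory caspases and pyroptosis, 11 were tested and 0 passed by edgeR, 2 had an unadjusted p under 0.05 and DESeq2 called 2. Casp8 had a log2 fold change of 0.02 (adjusted p = 0.917), and Gsdmd, the pore former of pyroptosis, had -0.26 (adjusted p = 0.166).

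Of 23 granule and lysosome components, all 23 were tested. By edgeR 3 fell and 0 rose, beside 5.81% lower and 5.94% higher among all tested genes. An unadjusted p under 0.05 was reached by 10 of the 23, beside 32.0% of all tested genes. DESeq2 called 4 as lower and 3 as higher. The list had a median log2 fold change of -0.047, close to the -0.025 over all tested genes. Psap, the precursor of the saposins, had 345, 343 and 315 CPM in WT and 213, 234 and 219 CPM in SIRPα KO, and fell by 0.59 (SE 0.10, adjusted p = 0.0168 by edgeR). Npc2, a lysosomal cholesterol carrier, fell by 0.69 (SE 0.18, adjusted p = 0.0462), and Tfeb, a transcription factor of lysosomal genes, fell by 1.16 (SE 0.30, adjusted p = 0.0471). Srgn, the proteoglycan core of granules, had a log2 fold change of -0.34 (adjusted p = 0.166), and M6pr, a mannose 6-phosphate receptor, had 0.29 (adjusted p = 0.129). None of the calls in these lists held without any 1 of the SIRPα KO libraries. Their adjusted p values were then between 0.0837 and 0.102 for Cst3, 0.0532 and 0.0666 for Tpsab1, and 0.095 and 0.154 for Gzma, and between 16 and 17 genes passed in all. Gzma also did not pass without any single WT library (adjusted p between 0.0509 and 0.054), Npc2 without WT replicate 1 (0.0665) and Tfeb without WT replicate 1 (0.0932) or 2 (0.0601). With length and GC content corrected for, Gzma (0.0547), Npc2 (0.0521) and Tfeb (0.154) did not pass either. Over all 16 alternatives, the adjusted p reached 0.154 for Gzma, 0.172 for Npc2 and 0.187 for Tfeb at most. When libraries of a shared code were summed, Tpsab1 alone of the genes called in these lists passed.

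**Figure D4:**
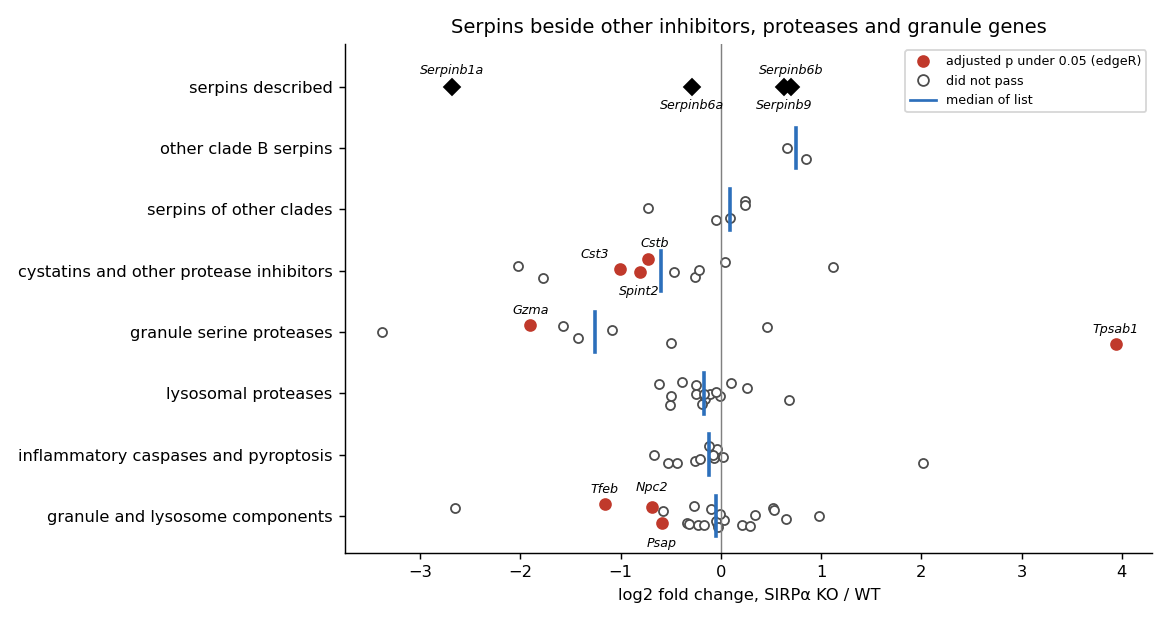
Log2 fold change (horizontal axis, SIRPα KO over WT) of the 4 serpins (black diamonds) and of the tested genes of 7 lists (circles, with a small vertical scatter for legibility). Red circles passed an adjusted p under 0.05 by edgeR, open circles did not, and blue bars are list medians. The members spread from -2.68 to 0.70, while 3 inhibitors of other families, from Cst3 at -1.01 to Cstb at -0.73, passed on the lower side.

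Markers of some other cells differed between the groups, although the gate was set against most of these cells. Their calls stand beside 5.81% lower and 5.94% higher among all tested genes by edgeR. Serpinb1a is known from neutrophils, and of 10 neutrophil markers 4 were counted. S100a8 had at most 9 reads and Csf3r at most 11 in any library, and Mpo and Ltf were at 0 in all libraries except WT replicate 3, with 166 and 19 reads. WT replicates 1 and 2, with Mpo at 0, held Serpinb1a at 53.6 and 52.5 CPM. Of 6 NK cell markers, 5 were tested and 3 fell, Klrb1c, Eomes and Klre1, and their sum over all 6 was 10.1 to 17.6 CPM in WT and 0.868 to 1.63 CPM in SIRPα KO. Granzymes and their serpins are known from NK cells and T cells. Of 8 T cell markers, 3 were tested and 2 fell, Cd3g and Trbc2, and the sum was 150 to 202 CPM in WT and 94.4 to 101 CPM in SIRPα KO. Most of that sum was Trbc2, at 132 to 179 CPM in WT and 89.7 to 95.5 CPM in SIRPα KO. Cd3e was also tested and overlapped (log2 fold change -0.33, adjusted p = 0.78 by edgeR). Trac had at most 23 reads and Cd3d at most 17 in any library. Of 6 B cell markers, 5 were tested and 4 fell, Cd79a, Cd79b, Igkc and Ighm, and the sum was 212 to 477 CPM in WT and 22.6 to 84.5 CPM in SIRPα KO. Without any 1 of the SIRPα KO libraries, or with libraries of a shared code summed, 0 of these NK, T and B cell markers passed by edgeR. Of 21 macrophage, mast cell and basophil, eosinophil and dendritic cell markers tested, 0 passed by edgeR, 3 had an unadjusted p under 0.05, and DESeq2 called 1, Hdc. Without WT replicate 3, Marco, Lyz2, Ear1 and Itgax passed by edgeR, all as higher in SIRPα KO. Marco and Ear1 had 0 reads in both remaining WT libraries. Xcr1 passed only with the length and GC correction. Among epithelial, endothelial and fibroblast markers, Epcam fell (log2 fold change -1.18, adjusted p = 0.0354) and Pecam1 rose (0.87, adjusted p = 0.0421) by edgeR. Neither passed without any 1 of the SIRPα KO libraries, with libraries of a shared code summed, or with a replicate block in the fit. The part of these cells in the values of the serpins and granzymes was not tested.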

How the data were processed

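Libraries of cultured lung ILC2s, 3 WT and 3 SIRPα KO, were analysed. Each cDNA came from 10 pg of RNA, amplified with an ultra low input kit. The authors aligned the reads with STAR to mm10 with GENCODE M21 and quantified them in Partek, and deposited estimated counts per gene, not scaled for library size. The submitters' processing notes name Partek 10.0, STAR 2.7.8 and DESeq2. The table has 17831 genes, none with a total under 10, of which 201 were recorded singly and 17630 were used as further columns of the same unit.

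Counts were rounded, filtered by edgeR's filterByExpr (10 reads in a library of median size, 15 in total) and scaled by TMM. The quasi-likelihood test was applied on genotype alone, with Benjamini-Hochberg adjustment over 13623 genes and a threshold of 0.05. SE was taken from the F statistic. R 4.3.3, edgeR 4.0.16, limma 3.58.1, DESeq2 1.42.0, matplotlib 3.10.9 and BLAST+ 2.17.0 were used. The procedure was tested on simulated data. Log2 CPM used a prior count of 2. Symbols were matched to GENCODE M21 directly for 17400 genes, through synonyms for 190, and not for 241. Near-identical copies were sought at 95% identity over 50% of the length.

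The members and lists were chosen with earlier results of these data known. Named genes are the members, in each list those past the threshold (at most the 5 with the highest average) and the 2 highest others, the 3 genes most correlated with each member, and neighbours within 1 Mb. Other named genes were chosen after their values were seen. Alternatives were DESeq2, 3 scalings, 2 filters, a replicate block, summing libraries of a shared code, a length and GC correction, unrounded counts, leaving out each library and other gene lengths. Counting error is included in the edgeR model. Some genes of the lists are not reported here, and list counts and sums leave them out.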

Additional observations from a re-analysis of the deposited data

How the results depend on the processing

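The members kept their direction under all 16 alternatives, and of their 64 values 63 moved by less than the pooled SD of log2 CPM within groups. The exception was Serpinb9, at 0.31 after the length and GC correction. Leaving out a library gave log2 fold changes of -2.79 to -2.56 for Serpinb1a, -0.41 to -0.11 for Serpinb6a, 0.45 to 0.91 for Serpinb6b and 0.51 to 0.76 for Serpinb9. Upper quartile scaling moved the median of all genes from -0.025 to -0.125.

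Of all genes, 1600 passed. DESeq2 called 3170, summing libraries of a shared code left 10, and leaving out a library gave 16 to 2606. DESeq2 called 7 granule and lysosome components, 2 lysosomal proteases and 2 inflammatory caspase and pyroptosis genes. Upper quartile scaling called 1 lysosomal protease. With no filter on low counts, 1 granule serine protease and 1 granule and lysosome component passed, as they did after the length and GC correction. With codes summed, 1 granule serine protease and 0 cystatins and other inhibitors and 0 granule and lysosome components passed. Leaving out a library gave 0 to 3 cystatins and other inhibitors, 0 to 3 granule and lysosome components, 0 to 2 granule serine proteases and 0 to 2 lysosomal proteases. The cause of these changes was not tested.

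Libraries with the same replicate number deviated together with correlations of -0.14, 0.18 and 0.03, and not every library followed its own number best, so the numbers were not taken as pairs. A fit with a replicate block called 1118 genes, 1 granule and lysosome component and 2 cystatins and other inhibitors, with Spint2 at an adjusted p of 0.0549 by edgeR, and gave log2 fold changes of -2.68 for Serpinb1a and 0.62 for Serpinb9.

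Per kb of the longest transcript, Serpinb1a was at 30.0 CPM in WT and 4.68 in SIRPα KO, and Serpinb6a at 72.1 and 59.1. Per kb of the principal coding transcript, chosen after seeing the data because the longest Serpinb6a transcript is a retained intron, Serpinb6a was at 95.5 and 78.3, and Serpinb1a again at 30.0 and 4.68.

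Among other named genes, the length and GC correction changed the sign of Serpina3g (0.143), Serpini1 (-0.321), Pebp1 (0.301), Tpsb2 (0.026), Ctsd (0.006), Ctsz (0.322), Casp8 (-0.084) and Gsdmd (0.032). Upper quartile scaling changed Serpini1 (-0.012) and Casp8 (-0.082). Leaving out a library also changed the sign of Serpinb9b (-0.703 to 1.673), Serpini1 (-0.012 to 0.246), Tpsb2 (-3.793 to 0.054), Ctsz (-0.261 to 0.022) and Casp8 (-0.018 to 0.059). The values rest on 3 libraries per group, and on 31 to 100 reads per library for Serpinb6b, which limits their precision.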

Other observations

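Some mast cell and basophil proteases differed widely between libraries of a group. They were picked after seeing their values. Mcpt8, a basophil protease, had 4.72, 3.06 and 11.3 CPM in WT, 1.85 CPM in SIRPα KO replicate 1 and 0 reads in SIRPα KO replicates 2 and 3. Cma1 had 8.45, 8.18 and 30.9 CPM in WT, 16.6 CPM in SIRPα KO replicate 1, and 0.472 and 0.868 CPM in SIRPα KO replicates 2 and 3, which share a sample code. Tpsb2 had 11.5, 10.0 and 15 CPM in WT, 24.2 CPM in SIRPα KO replicate 1, and 1.10 and 0.620 CPM in the other 2.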
